A study of Homo sapiens with 6 samples.

Results

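The cytosolic ribosomal protein genes were followed through 6 RNA-seq libraries of HCT-116 cells. Members were chosen by gene symbol alone, as RPL or RPS with a number and an optional A, L, L1 or X, plus RPLP0, RPLP1, RPLP2 and RPSA, leaving out pseudogenes, RPS6K kinases and RPS4Y genes. The rule found 84 genes of 60546 in the table, 52 of the large (60S) subunit and 32 of the small (40S) subunit.

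HCT-116 is an established colon carcinoma line. The comparison set 3 libraries against 3, from HCT-116-PMSCV-GOLPH3 cells, infected with a retroviral PMSCV construct that carries the Golgi phosphoprotein gene GOLPH3, and from HCT-116-PMSCV-Vector cells, infected with the empty construct. All cells were grown in DMEM with serum and lysed in a Trizol-type reagent, and the labels give the line as wild type. Each group's samples came from different generations of its line, and the titles carry P8, P12 and P13 for GOLPH3 replicates 1 to 3 and P12, P11 and P13 for Vector replicates 1 to 3. What P stands for is not given in the sources used here. A p-value therefore measures the spread between samples of 1 line per group, and a difference between the lines cannot be told apart from the effect of the construct.

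The GOLPH3 transcript itself was at 1630, 1272 and 1383 normalised reads in the libraries labelled GOLPH3 and at 1968, 1892 and 1472 in those labelled Vector (log2 change -0.31, limma adjusted p = 0.609), so the libraries are named by their labels throughout. This transcript gave no check of the labels, and every direction given for GOLPH3 against Vector rests on them. Whether reads of the introduced construct were counted to the gene was not tested. A normalised read is a read count divided by the size factor of its library. Of 14 colon epithelial markers, 12 were present above 3 reads (KRT20 and CDX1 were not). Their summed level was 74597 to 152051 in GOLPH3 and 33814 to 44229 in Vector libraries. Abundant keratins weighed heavily in it, with KRT8 alone at 42608, 25226 and 75110 in GOLPH3. CDX2 did not follow the sum, at 247, 261 and 358 in GOLPH3 and 415, 184 and 897 in Vector (log2 change -0.52, limma adjusted p = 0.636). The sum of 3 endothelial markers was 19.2 to 34.4 in GOLPH3 and 13.1 to 19.7 in Vector libraries. For 4 immune markers it was 2.47 to 4.29 in GOLPH3 and 17.5 to 50.6 in Vector libraries. Of these, CD3E, CD68 and PTPRC had at most 3 reads in every library. In bulk RNA, fewer cells of a type and less RNA per cell cannot be told apart.

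Each cytosolic ribosome is built from ribosomal RNA and a fixed set of ribosomal proteins, nearly all in a single copy, which are made in the cytoplasm and assembled with rRNA in the nucleolus. Most of their mRNAs start with a C followed by an unbroken run of pyrimidines, the 5′ terminal oligopyrimidine (TOP) motif, through which mTORC1 and LARP1 control their translation. A few members are paralogues of a core subunit, such as RPL39L and RPL10L, which are best known from male germ cells, and RPL3L, from striated muscle.

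Start-site windows from RefSeq (GRCh38.p14) were found for 67 of the 84 members. They are shown because most core genes with a window had a TOP start and most paralogues with a window lacked it. RPL39L and RPL3L had no window, so their starts were not examined. Each window runs from 25 bases before the annotated start to 25 bases from it, 5′ to 3′ on the gene's strand, with the pyrimidine run that begins at the first transcribed base in capitals.
RPL41, chr12:56116608-56116657, plus strand: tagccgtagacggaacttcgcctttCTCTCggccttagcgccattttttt
RPLP1, chr15:69452793-69452842, plus strand: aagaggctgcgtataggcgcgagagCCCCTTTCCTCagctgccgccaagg
RPL39, chrX:119791606-119791655, minus strand: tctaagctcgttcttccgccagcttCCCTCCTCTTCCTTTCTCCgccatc
RPL36A, chrX:101390986-101391035, plus strand: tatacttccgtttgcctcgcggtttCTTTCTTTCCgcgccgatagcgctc
RPL22, chr1:6199571-6199620, minus strand: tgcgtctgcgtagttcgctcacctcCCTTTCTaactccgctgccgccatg
RPL22L1, chr3:170870171-170870220, minus strand: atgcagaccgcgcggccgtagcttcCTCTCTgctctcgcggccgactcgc
RPS27, chr1:153990737-153990786, plus strand: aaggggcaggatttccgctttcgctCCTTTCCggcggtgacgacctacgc
RPS27L, chr15:63157453-63157502, minus strand: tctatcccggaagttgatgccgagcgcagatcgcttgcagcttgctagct
RPL7L1, chr6:42879591-42879640, plus strand: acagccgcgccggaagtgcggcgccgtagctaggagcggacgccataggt
RPS4X, chrX:72277224-72277273, minus strand: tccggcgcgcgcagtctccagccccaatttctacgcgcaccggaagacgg

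A C at the start with a run of at least 5 pyrimidines stood at a start of 46 of 62 core members (74.2%) and of 1 of 5 paralogues, RPL22L1. By gene, 5.14% of all genes with an annotated start had it, as had 8.7% of the mitochondrial ribosomal protein genes. By start site, the share was 59.7% for core members, 4.07% for all genes and 7.06% for the mitochondrial ribosomal protein genes. The letters CTTTCC, read on both strands over the whole 300-base windows, occurred in 45.8% of member windows and 26.3% of all windows, and this motif can overlap the pyrimidine run. RPS4X, RPS28 and RPS26 were among the core members whose annotated start had no such run. The annotated start can differ from the start used in these cells. Beyond the start, the members lay on 21 chromosomes, with 12 on chromosome 19, and 28 of them held an annotated snoRNA gene (60 in all) within their span on the same strand.

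Ribosomal protein mRNAs were among the abundant transcripts of all 6 libraries. Of the 84, 64 had a mean of at least 5000 normalised reads. Per kilobase of coding sequence, the median of the 77 core members was 23730 normalised reads, with quartiles of 16644 and 29446, and the median was 23518 for the large and 25244 for the small subunit. RPL41, the shortest subunit, stood highest at 138936 per kilobase, followed by the stalk protein RPLP1 at 64145, RPS2 at 52969, the stalk base RPLP0 at 50760 and RPL13A at 47637. The coding sequence of RPL41 (chr12:56116586-56117943, plus strand, GRCh38) is 75 bases without its stop codon, so that the value per length rests on few bases:
RPL41: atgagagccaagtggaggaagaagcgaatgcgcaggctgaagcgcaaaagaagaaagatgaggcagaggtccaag
At the low end, also per kilobase, were RPL10L, which was listed at 0 in every library, RPS18 at 0.704, RPL3L at 6.0 and RPS9 at 57.9.

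**Figure D1:**
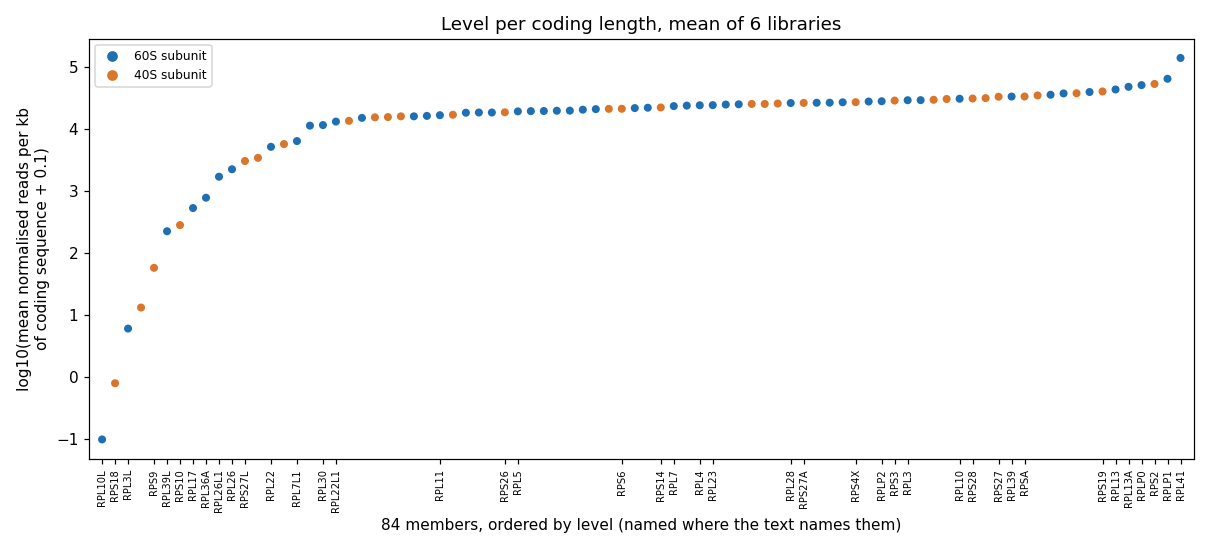
Level of each of the 84 members per kilobase of coding sequence, as log10 of the mean normalised reads over 6 libraries plus 0.1 (y axis), ordered from low to high (x axis) and coloured by subunit. Most members lie on a plateau around the core median of 23730, RPL41 lies above it at 138936, and a tail of 10 genes lies below RPL26 at 2242.

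The tail held core subunits that every cell needs as well as paralogues. RPS18 gave at most 1 read in any library, and all 16 of the nearest protein-coding genes around it in the HLA region of chromosome 6 (8 on each side) were under a mean of 10 normalised reads, among them VPS52, B3GALT4 and PFDN6, listed at 0, and TAPBP at 0.172. RPS9, on chromosome 19 beside the LILR genes, had 13 of its 16 neighbours under that level, including TSEN34 at 0.343, while CNOT3 stood at 238. Over all 19861 protein-coding genes of the table, 31.9% were under it. The neighbours of RPS18 and RPS9 were picked after the low values were seen. Abundant members could have low neighbours too, with 10 of 16 under that level around RPL23, 10 of 16 around RPS19 and 9 of 16 around RPS4X. A further set of low members shared coding bases with another annotated gene on the same strand: RPL17 shared 98.2% of them with the readthrough gene RPL17-C18orf32, RPL36A 67.3% with RPL36A-HNRNPH2 and RPS10 56.9% with RPS10-NUDT3. The 3 readthrough genes had at most 2 reads in any library. Levels of RPS18, RPS9, RPS10, RPL17 and RPL36A are therefore uncertain, and the part of these annotations in the counts was not tested. Reads were also counted to processed pseudogenes, and how many of them came from the members was not tested. The 1194 ribosomal protein pseudogenes in the table took reads equal to 2.84% to 3.92% of those of the members, led by RPS2P5 with a mean of 10888. Of the 316 that could be tested, 1 was lower in GOLPH3 at an adjusted p under 0.05 in limma, against 5.07% of all genes tested. At an unadjusted p under 0.05 in limma 18 passed, against 17.6% of all genes. The median log2 change of the pseudogenes was 0.16 and that of all genes 0.02.

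The comparison of GOLPH3 with Vector libraries asked whether the ribosomal protein transcripts differed between the lines. Of the 82 members that could be tested, 1 passed an adjusted p of 0.05 in limma, against 5.07% of all 26536 genes tested. This was RPL39L, lower in GOLPH3. It entered the test only through its values in the Vector libraries. Leaving aside fits with the P number or the later G+C correction, no member was higher on all 6 libraries at an adjusted p under 0.05. This held in limma, DESeq2 and edgeR. In these fits none was higher at an unadjusted p under 0.05 either, against 7.51% of all genes in limma. At an unadjusted p under 0.05, 3 members were lower (RPL39L, RPS9 and RPL36A), against 10.1% of all genes, and both directions together took 17.6% of all genes. The groups did not overlap for 9 of 82 members, where they did not for 22.0% of all genes. The members' median log2 change was 0.22 (0.23 for the large and 0.21 for the small subunit) and that of all genes 0.02, with 55 members above 0 and 27 below. Under quantile normalisation the members' median was 0.00 and that of all genes 0.09, and with scaling to total reads without mitochondrial genes they were 0.11 and -0.09. Between replicates of a group, the median of the members in a library varied with an SD of 0.26 on the log2 scale.

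**Figure D2:**
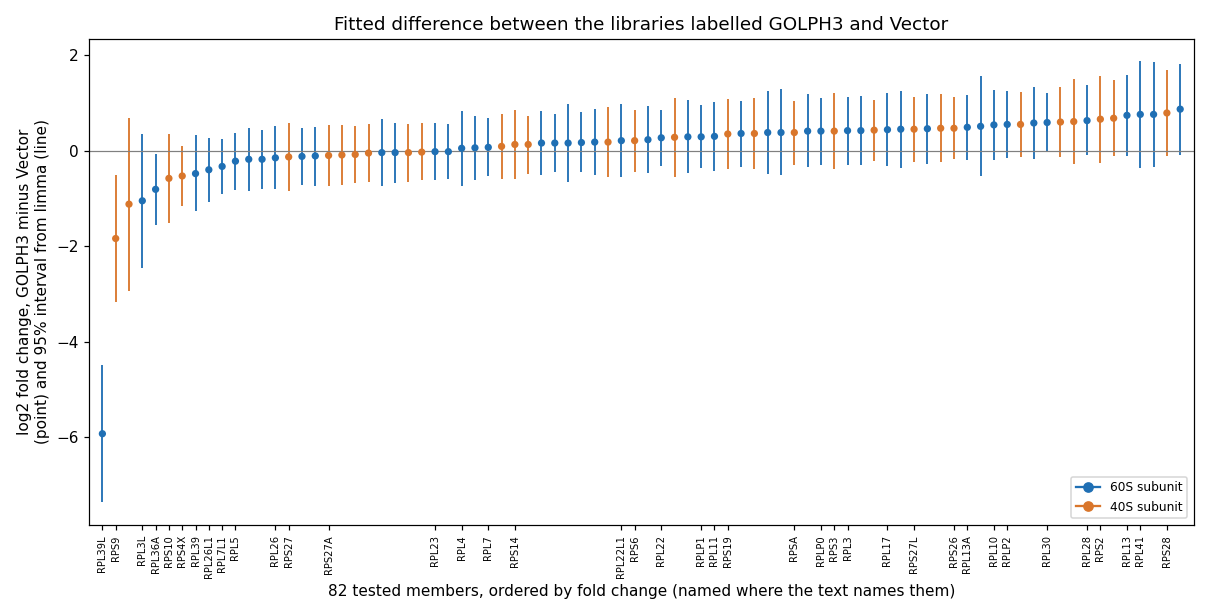
Fitted log2 difference between the libraries labelled GOLPH3 and Vector (point) with its 95% interval from limma (line) for the 82 tested members, coloured by subunit and ordered by size (x axis). RPL39L at -5.93 lies apart, the intervals of RPS9 and RPL36A also end below 0, and no interval lies wholly above 0.

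RPL39L, a paralogue of the tunnel protein RPL39, was the member that fell. It had 0 reads in each GOLPH3 library and 95.7, 26.3 and 85.0 normalised reads in the Vector libraries. The groups did not overlap. Against a limit of 3 reads per library, the Vector mean of 69.0 ± 37.4 (SD, n = 3) was at least 21.4-fold higher. The fitted log2 change was -5.93 (limma adjusted p = 0.000132, which depends on the pseudocount). RPL39L met the filter for testing, a value of 1 in 3 or more libraries, only through the Vector libraries. The p-value is therefore no separate support for the split. Both within-P differences, on the scale of log2(value + 1), went the same way, -6.60 for P12 and -6.43 for P13. RPL39 (chrX:119786504-119791643, minus strand) was at 2639, 4122 and 6086 in GOLPH3 and 4813, 4459 and 8352 in Vector, so it was abundant where RPL39L had no read (log2 change -0.48 ± 0.36 SE, limma adjusted p = 0.549). The coding sequences of the pair are 94.8% identical over 153 bases, and 8 bases differ, shown in capitals below, 1 at codon position 1, 3 at position 2 and 4 at position 3. Both come from GENCODE 29 (GRCh38), and RPL39L lies at chr3:187120948-187180908 on the minus strand.
RPL39: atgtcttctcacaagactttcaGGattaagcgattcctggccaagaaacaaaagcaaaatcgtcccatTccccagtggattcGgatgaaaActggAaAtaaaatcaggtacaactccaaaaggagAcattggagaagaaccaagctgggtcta
RPL39L: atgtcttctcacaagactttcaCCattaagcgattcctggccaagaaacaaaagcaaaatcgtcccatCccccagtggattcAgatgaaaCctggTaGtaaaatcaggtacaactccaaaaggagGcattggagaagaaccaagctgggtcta
A list of 8 other genes, chosen on these data for the same pattern (IRS4, ADAMTS1, ROBO1, CDH2, ZEB2, UCHL1, HOXD13 and HAND1), summed to 1.65 to 4.29 normalised reads in GOLPH3 and 7525 to 21006 in Vector libraries. That list moved with RPL39L, and its part in the result was not tested.

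The other paralogues showed no such split, and none passed an adjusted p of 0.05 in limma without the P number. With the G+C correction and the P number as a block, 2 of them were higher. These were RPL22L1 (0.79, limma adjusted p = 0.00206) and RPS27L (0.82, limma adjusted p = 0.000535), where 28.2% of all genes passed. Values without either follow. RPL22L1, which can replace RPL22 in the ribosome, was the more abundant of its pair in every library, at 136% to 452% of RPL22 per coding length. It was at 4559, 5580 and 4808 in GOLPH3 and 6533, 4837 and 2524 in Vector (log2 change 0.21 ± 0.35 SE). RPL26L1 was close to RPL26, at 56.4% to 115% of it per coding length. RPS27L, a p53-responsive paralogue of RPS27, was at 1072, 628 and 965 in GOLPH3 and 610, 795 and 528 in Vector, so that the groups overlapped (0.45 ± 0.31). Relative to RPS27 per coding length, it was at 9.99% to 13.2% in GOLPH3 and 6.44% to 8.68% in Vector libraries, ranges that did not overlap and were not tested further. RPL7L1 was at 4177, 4684 and 4069 in GOLPH3 and 6100, 5113 and 5087 in Vector, without overlap (-0.33 ± 0.26, limma adjusted p = 0.564). RPL3L, on few reads, was at 2.15, 4.12 and 7.47 in GOLPH3 and 6.18, 12.05 and 12.01 in Vector. Relative to RPL3 per coding length, it was at 0.00686% to 0.0141% in GOLPH3 and 0.0202% to 0.0489% in Vector. These ranges did not overlap either, nor did those of RPL39L to RPL39, and both were lower in GOLPH3.

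**Figure D3:**
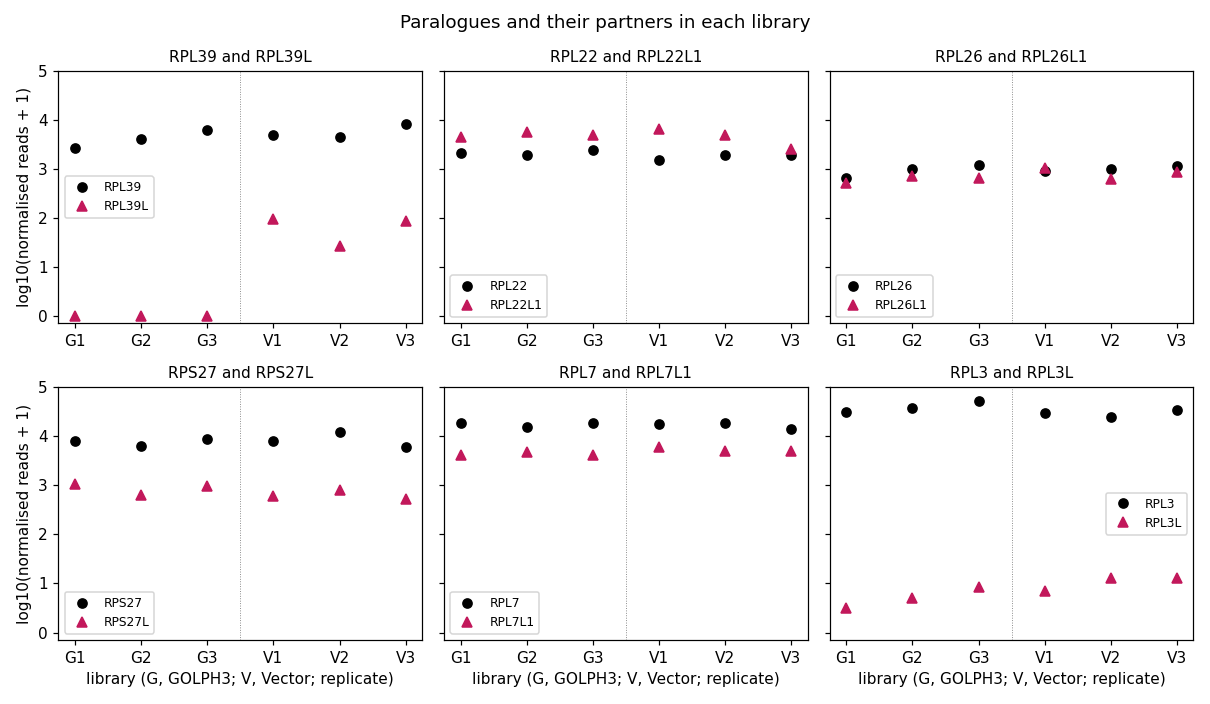
The 6 paralogues with reads (triangles) and their core partners (circles) in each library, as log10 of normalised reads plus 1 (y axis), GOLPH3 replicates left and Vector replicates right of the dotted line. RPL39L is at 0 in the 3 GOLPH3 libraries, RPL22L1 lies above RPL22 in every library, and RPL3L lies far below RPL3.

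RPS9, a core 40S protein of the decoding region, was at 9.66, 15.7 and 10.7 normalised reads in GOLPH3 and 30.9, 26.3 and 109 in Vector, without overlap. Its log2 change of -1.84 ± 0.61 SE missed the adjusted threshold in limma (adjusted p = 0.125) and passed it in DESeq2 (log2 change -2.20, adjusted p = 0.0116). It rests on few reads, in a region where the neighbouring genes were low as well. RPL36A was at 199, 169 and 162 in GOLPH3 and 219, 351 and 388 in Vector (-0.81 ± 0.34, limma adjusted p = 0.234). Its near twin RPL36AL, outside the symbol rule, had means of 1298 and 1105 (0.28 ± 0.42). RPS4X, an X-linked 40S protein, was at 16108, 16872 and 19105 in GOLPH3 and 27235, 21252 and 27040 in Vector, without overlap (-0.53 ± 0.29, limma adjusted p = 0.376). Its differences were -0.69 within P12 and -0.50 within P13.

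Among the members with the smallest p-values on the higher side were RPL30, RPS28, RPL13 and RPL28, at log2 changes of 0.59, 0.79, 0.74 and 0.63 and unadjusted limma p between 0.0601 and 0.0847 (adjusted p 0.312 to 0.368). RPL30 was at 3896, 4653 and 5792 in GOLPH3 and 3574, 2611 and 3331 in Vector. Every GOLPH3 library lay above every Vector library for RPL30, as for RPL13A. RPS28 was at 6287, 7611 and 9448 in GOLPH3 and 6404, 2110 and 6467 in Vector. Its groups overlapped, with GOLPH3 replicate 3 the highest library and Vector replicate 2 the lowest. The same held for RPL13, at 23773, 29699 and 48843 against 22749, 12073 and 26885.

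Among members with a known role outside or at a defined place in the ribosome, only RPL39L passed the adjusted threshold in limma without the P number. With the P number as a block RPL41 (limma adjusted p = 0.000308) and RPLP2 (0.64 ± 0.21 SE, adjusted p = 0.0187) passed as well, both higher. In that fit 22.9% of all genes passed. RPL36A passed there too, lower in GOLPH3 (-0.81 ± 0.25 SE, adjusted p = 0.0118). With the G+C correction in that fit RPL41 and RPL22 (limma adjusted p = 0.005) passed beside RPL39L, against 28.2% of all genes. Values without the P number follow. RPL5 and RPL11, which form the 5S particle that binds MDM2, were at 15772, 15021 and 16472 against 20139, 18097 and 16971 for RPL5 (-0.22 ± 0.27, no overlap), and at 6731, 9968 and 12757 against 6931, 6238 and 10702 for RPL11 (0.30 ± 0.33). RPL23, another MDM2-binding protein, had the smallest fold range of the 77 members with a mean of at least 200, 1.28 between its highest and lowest library (-0.02 ± 0.27, 95% interval -0.61 to 0.58). RPL10, which joins the 60S subunit last, had means of 23109 ± 5506 and 16184 ± 5242 (SD, n = 3, 0.54 ± 0.34 SE). RPL3, at the peptidyl transferase centre, was at a log2 change of 0.42 ± 0.33, and RPL4, in the exit tunnel, at 0.05 ± 0.36, and neither passed the test. The stalk proteins RPLP0, RPLP1 and RPLP2 had log2 changes of 0.41 ± 0.32, 0.29 ± 0.30 and 0.55 ± 0.32 (SE). On the small subunit, RPSA was at 0.38 ± 0.31, RPS3, which lines the mRNA entry, at 0.41 ± 0.36, and RPS6, the substrate of S6 kinase, at 0.21 ± 0.29. RPS14, RPS19 and RPS26, known from marrow failure with lost ribosomal protein genes, were at 0.13 ± 0.34, 0.35 ± 0.34 and 0.47 ± 0.30, and the ubiquitin fusion RPS27A was at -0.10 ± 0.29. RPL41 was at 5114, 15602 and 18929 in GOLPH3 and 6174, 3992 and 12712 in Vector (0.76 ± 0.51). Its highest library was 4.74-fold above its lowest. Of the remaining fixed names, RPL7 was at 0.07 ± 0.28, RPL22 at 0.27 ± 0.27, RPL26 at -0.15 ± 0.30 and RPS27 at -0.13 ± 0.32.

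Most of the abundant members were high or low in the same libraries. GOLPH3 replicate 3 was the highest library for 56 of the 77 members with a mean of at least 200, and Vector replicate 2 the lowest for 40. Among the other 9388 coding genes at that level, these libraries were highest for 24.8% and lowest for 30.7%. The members' median deviation from their mean over the libraries was -0.11, 0.07 and 0.47 in GOLPH3 replicates 1 to 3 and 0.03, -0.39 and 0.00 in Vector replicates 1 to 3, on the log2 scale. The members took 4.89%, 5.55% and 6.93% of reads in the GOLPH3 and 5.47%, 4.17% and 5.90% in the Vector libraries. Their summed level was 1061257 ± 252525 against 863234 ± 126584 normalised reads (SD, n = 3, two-sided exact permutation p = 0.4, where 0.1 is the smallest 3 against 3 can give). Within P12 the summed level was 1002108 in the GOLPH3 and 928604 in the Vector library, and within P13 it was 1338106 and 943768, so GOLPH3 was higher in both pairs. The exact sign-flip p over these 2 pairs was 0.5, the smallest they can give. The other libraries, GOLPH3 replicate 1 (P8) at 843556 and Vector replicate 2 (P11) at 717331, share no P number. The shares of the groups overlapped. Without GOLPH3 replicate 3 the members' median log2 change was 0.04, and without Vector replicate 2 it was 0.14.

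**Figure D4:**
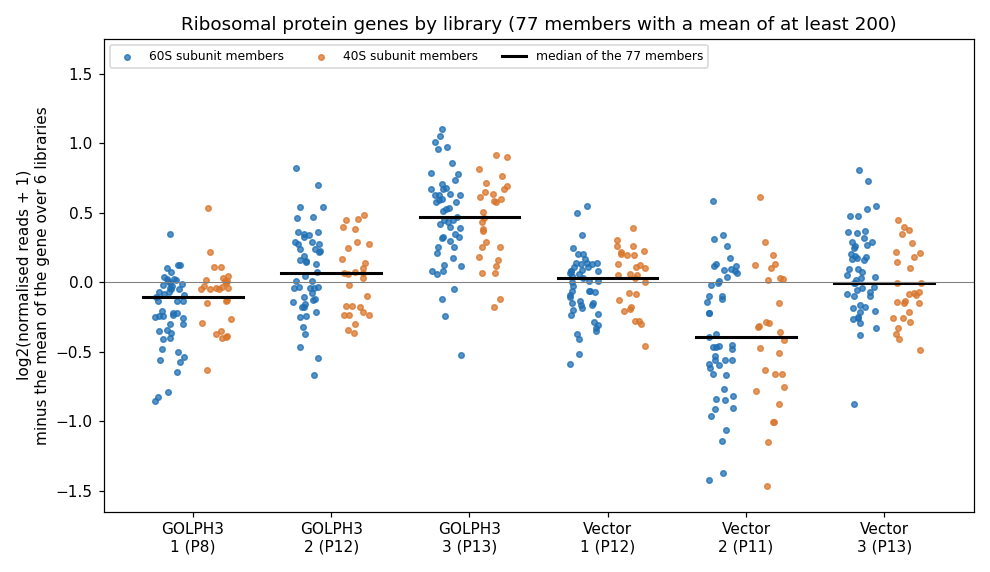
Deviation of each of 77 members from its own mean over the 6 libraries, on the scale of log2(normalised reads + 1) (y axis), by library (x axis, with the P label), coloured by subunit, with the median as a black bar. The median is 0.47 in GOLPH3 replicate 3 and -0.39 in Vector replicate 2 and between -0.11 and 0.07 in the other libraries.

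The base composition of the members moved with these libraries. Across the 77 members, the G+C share of the coding sequence correlated with the deviation at r = 0.62 in GOLPH3 replicate 3 and r = -0.75 in Vector replicate 2, and between -0.16 and 0.44 in the rest. The 9388 other coding genes gave 0.63 and -0.72 in the same libraries. These are descriptions over genes that share a library and its depth. In Vector replicate 2, the median deviation was 0.09 for the 26 members of lowest G+C (40.4% to 47.3%) and -0.77 for the 26 of highest G+C (53.8% to 63.0%). The median log2 change between the groups was -0.04 in the first and 0.45 in the second of these classes. After a G+C correction per library, chosen after seeing the data, the medians by library were -0.10, 0.09 and 0.47 in GOLPH3 and -0.05, -0.35 and 0.02 in Vector, and the members' median log2 change was 0.25. RPL39L and RPS9 were then the members past an adjusted p of 0.05 in limma (0.000526 and 0.0265), against 9.10% of the 15643 genes in that fit. At an unadjusted p under 0.05 in limma, 4 members were higher and 3 lower there. Of all genes in that fit, 21.8% passed this threshold in either direction. The part of base composition in any single member's difference was not tested.

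**Figure D5:**
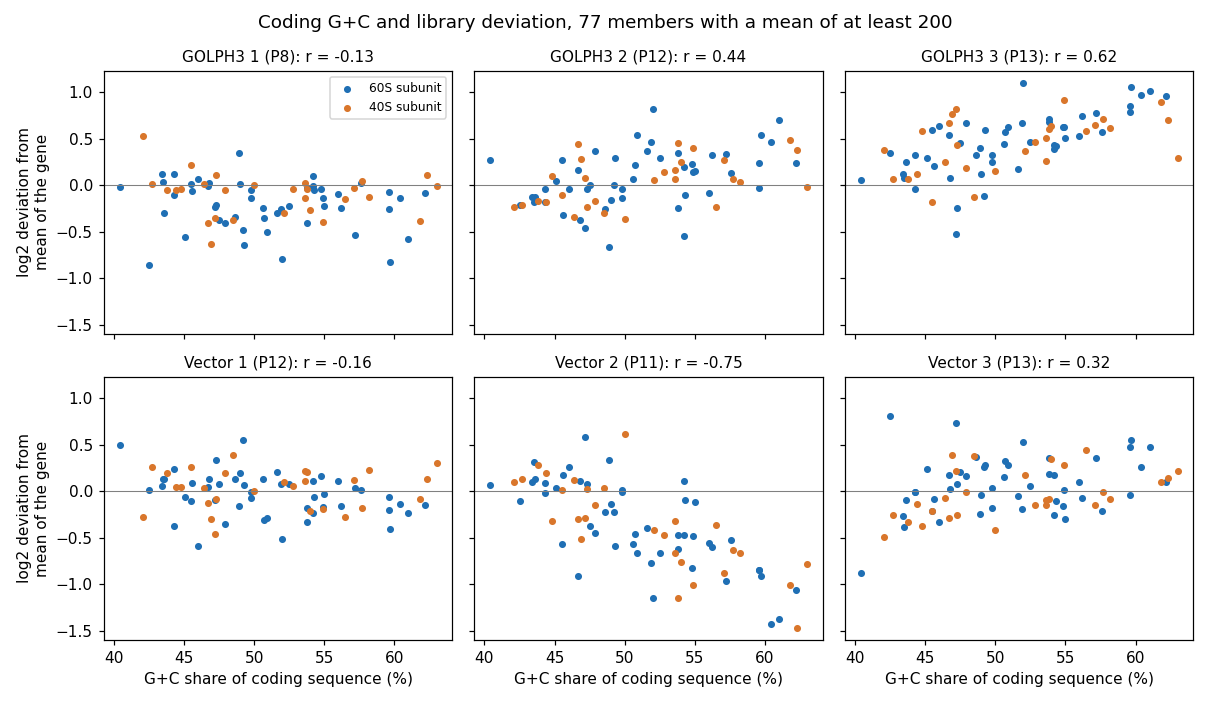
Log2 deviation of each of 77 members from its mean over the libraries (y axis) against the G+C share of its coding sequence in percent (x axis), in 1 panel per library with Pearson's r. The points climb to the right in GOLPH3 replicate 3 (r = 0.62) and fall in Vector replicate 2 (r = -0.75).

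P12 and P13 each held 1 library of each group. Within P12 the members' median difference was 0.05 and 45 of 82 were higher in GOLPH3, and within P13 it was 0.39 and 70 of 82 were higher. All genes tested had medians of 0.00 and -0.01 in the same pairs. With the P number as a block, a fit in which only P12 and P13 inform the difference and 1 residual degree of freedom is left, 17 members passed an adjusted p of 0.05 in limma, against 22.9% of all genes, 14 higher and 3 lower in GOLPH3. RPL41 had a log2 change of 0.96 ± 0.22 SE there (adjusted p = 0.000308), RPS12 of 0.76 ± 0.23 (adjusted p = 0.00796) and RPL30 of 0.59 ± 0.20 (adjusted p = 0.0191). The 3 lower members were RPL39L, RPS9 and RPL36A. With the G+C correction in the same fit 14 passed, 12 higher and 2 lower, against 28.2% of all genes in that fit.

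Genes that work with the members were taken as 6 lists. Of the 4 ribosomal proteins outside the symbol rule none passed at an unadjusted p under 0.05 in limma, with FAU at 0.32 ± 0.33 and RACK1 at -0.10 ± 0.31. Of 16 tested translation factors with TOP mRNAs, 1 was lower at an unadjusted p under 0.05, the histone chaperone NAP1L1 (-0.80 ± 0.36, adjusted p = 0.278), and the median was 0.14. EEF1D and NPM1 came next, at -1.02 ± 0.48 and -0.63 ± 0.34. Of 14 regulators of ribosome production, RPTOR, the mTORC1 subunit, and MAF1, the RNA polymerase III repressor, were higher (0.70 ± 0.29 and 0.82 ± 0.36) and EIF4EBP2 lower (-0.78 ± 0.32), all at unadjusted p, with none past an adjusted p. The 52 assembly factors had a median of -0.10, and the kinases RIOK2 and RIOK1 (-0.83 ± 0.31 and -0.76 ± 0.29) and the RNA polymerase I factor TAF1C (0.70 ± 0.30) passed the unadjusted threshold. For the mitochondrial ribosomal proteins, of which 76 were tested, the median was 0.07, with MRPS33 and MRPL37 lower (-0.82 ± 0.27 and -0.67 ± 0.27) and MRPL43 higher (0.74 ± 0.34) at unadjusted p. Of 25 tested snoRNA host genes 3 were higher at unadjusted p, SNHG12 (0.92 ± 0.29, adjusted p = 0.0993), SNHG6 (0.79 ± 0.29) and SNHG19 (1.05 ± 0.48), and the median was 0.22. In limma, no gene of these 6 lists passed the adjusted threshold, and 13 of the 187 tested (6.95%) passed the unadjusted one, against 17.6% of all genes.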

How the data were processed

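Total RNA of 6 HCT-116 libraries was sequenced. The submitters' processing notes name fastp 0.20.0, HISAT2 2.1.0, Cufflinks, featureCounts 1.6.1, DESeq2 and the build GRCh38, without roles, and how reads that align to several places were treated is not given in the sources used here. The authors deposited 1 normalised signal per gene and library. In every library all nonzero values were whole multiples (within 0.1) of a step between 0.8246 and 1.0955, so reads were recovered as value over step, 15708846 to 21900764 per library. These depths limit precision, and limits at 3 reads cover counting error only. The table's 60590 rows hold 44 repeated identifiers, whose values were summed.

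limma 3.58.1 (R 4.3.3) was fitted to log2(value + 1) with a trended prior over every gene that reached 1 in 3 or more libraries, with Benjamini-Hochberg adjusted p-values. DESeq2 1.42.0 and edgeR 4.0.16 were run on the recovered reads as alternatives. On simulated counts with 200 genes changed by 2 (log2), limma recovered 200 of 200 with 7 false calls over 26289 genes. On the same counts edgeR made 11 false calls and DESeq2 23. The simulation gave all genes the same dispersion and held no G+C or P-number pattern. It did not test changes as small as those of most members. Coordinates, coding lengths and coding G+C came from GENCODE 29, start windows from RefSeq. The G+C correction used a lowess (span 0.3) per library over coding genes with a mean of at least 50.

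Members and lists were chosen with earlier results of these data known. Named members are those with a fixed role, the paralogues, the called members, the 5 smallest p in each direction, and the 5 highest and lowest levels per length. Of the other lists the 3 smallest p were named, with RACK1 and the low-count neighbours added after their values were seen. A few genes that these rules name are not reported here. Replicate numbers did not pair the samples, since deviations of same-numbered libraries correlated at -0.49, -0.28 and 0.60. Libraries with the same P number correlated at 0.62 (P12) and 0.60 (P13), and GOLPH3 replicate 1 (P8) and Vector replicate 2 (P11), whose P numbers differ, at 0.65. Deviations were taken from the mean of each group, so this last correlation is not independent of the others.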

Additional observations from a re-analysis of the deposited data

How the results depend on the processing

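One member, RPL39L, passed the adjusted p in limma. The count was 0 with a filter of 1 in every library and ranged from 0 to 1 when each library was left out. It was 0 without any 1 of the Vector libraries, because RPL39L then had too few libraries above the filter to be tested. It was 2 in DESeq2 (with RPS9), 2 with the P number as covariate (with RPL41), 17 with the P number as block, 2 after the G+C correction and 14 with that correction and the P number as block. The shares of all genes past the adjusted p in these fits were 7.33%, 9.04%, 22.9%, 9.1% and 28.2%, against 5.07% in the main fit. Members at an unadjusted p under 0.05 numbered 3, against 25 with the P number as covariate, 28 with it as block, 7 after the G+C correction, 22 with both, and 1 (without Vector replicate 2) to 16 (without GOLPH3 replicate 1) when a library was left out. Without Vector replicate 3 they numbered 5. Of all genes, 17.6% passed that threshold, 24.6% with the P number as covariate, 32.5% with it as block, 21.8% after the G+C correction and 37.2% with both. The share was 14.5% without Vector replicate 2, 20.4% without GOLPH3 replicate 1 and 17.2% without Vector replicate 3. Paralogues at that threshold numbered 1, 0 with a filter of 1 in every library, 3 with the P number as block, 3 after the G+C correction, 3 with both, and 0 to 1 with a library left out. The median log2 change of the members (0.04 to 0.34), of the large subunit (0.05 to 0.35) and of the small subunit (0.04 to 0.33) moved by less than the spread between replicates when a library was left out, and the log2 ratio of summed levels was 0.10 to 0.44. Under quantile normalisation the medians were 0.00, -0.01 and 0.00 and the ratio of summed levels 0.00 (exact permutation p = 1). The causes were not tested.

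The replicate block, which the data gave no ground for, left 1 member at adjusted p and 3 at unadjusted p, and the summed level had a two-sided exact sign-flip p of 0.5. Where RPL39L could be tested, adjusted p-values for it lay between 1.23e-11 (G+C correction with P number as block) and 0.0021 (replicate block). Of 734 values of 39 named members under alternatives, 15 called values, all of RPL39L, stayed called, 703 stayed uncalled, 16 gained a call, none lost one and 41 uncalled values changed sign. No named call reversed. With 3 libraries a group, members with fewer than 3 reads, RPS18 and RPL10L, could not be compared.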
